A study of Homo sapiens with 15 samples.

Results

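The samples digested with 10 U of nuclease P1 were set against those digested with 1 U, 3 replicates of each, which are 6 of the 15 samples of the series. They were chosen by the P1 amount in their titles, and untreated nuclei and nuclei given less P1 were not used. All 6 samples came from K562, an established human leukemia cell line, whose wild-type cells were fixed with formaldehyde, lysed and spun at low speed, so that the pellet held nuclei together with mitochondria. The pellet was opened with SDS, incubated with P1 and sequenced by SSiNGLe, a method that adds a polyA tail to free 3′-OH ends of DNA and records the genomic position and strand of each end, here called a terminus. The 2 groups share the cell line, the fixation, the digestion time and the library protocol, and differ in the amount of P1 by 10-fold.

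P1 is a fungal nuclease that prefers single-stranded DNA, acts far less on double-stranded DNA, and leaves a 3′-OH end at each cut. The paper saw visible degradation of genomic DNA with 10 U but not with smaller amounts, and relates it to low activity on double-stranded DNA. It names the 10 U samples as a possible additional negative control. Termini after 10 U can thus include cuts in double-stranded DNA. Their part in the strand ratios and base contexts below was not tested. With too much enzyme a single-stranded stretch can be cut down to nucleotides, which yield no mappable end, so a larger amount of P1 can remove termini as well as create them. Mitochondrial DNA is a circle of a heavy (H) and a light (L) strand, and long stretches of H strand lie unpaired while it is copied, whereas the non-coding control region (NCR) carries the displacement loop, where a short strand called 7S DNA is paired to the L strand and displaces the H strand of the parent molecule. The comparison asks what happens to mitochondrial termini, to their strand bias, to the bases at the cuts and to the grouping of nuclear termini when digestion is carried further.

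The samples held 2258825 to 3891028 nuclear termini. Nuclear positions with a terminus are here called sites. Of these, 89.6%, 86.2% and 90.2% held just 1 terminus after 10 U, and 92.2%, 92.5% and 92.4% after 1 U. Mitochondrial termini numbered 29622 to 57127 after 10 U and 298951 to 359949 after 1 U. The labels do not say which strand the deposited one is. It was read as that of read 2, and the broken strand, to which all strands below refer, as its opposite. This was inferred from the T filter of the methods and from the known end of 7S DNA on H, and every H/L ratio, base context, base run and template share rests on it. Site densities fitted K562: BCR and ABL1, which are joined and amplified in this line, held 7.88 to 13.6 times the genome-wide density in all 6 samples, and CDKN2A, CDKN2B and MTAP, which are deleted in it, held at most 0.178 times that density.

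After 10 U, mitochondrial termini were 10.4-fold rarer relative to nuclear ones, and they lay on more even strands and at more positions. Scaled to 1000000 nuclear termini, the 10 U samples held 14570, 14682 and 10712 mitochondrial termini, and the 1 U samples held 130817, 159352 and 126310. The groups did not overlap, and the means were 13321 ± 2260 and 138826 ± 17918 (SD, n = 3 each), a 10.4-fold difference. With 3 samples against 3 the exact two-sided permutation test cannot go below p = 0.10, and it gave p = 0.10 here. A loss of mitochondrial termini and a gain of nuclear ones cannot be told apart from this ratio.

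The NCR made up a smaller share of mitochondrial termini after 10 U. It held 27.1%, 23.8% and 30.7% of mitochondrial termini after 10 U, and 38.1%, 40.3% and 41.0% after 1 U, without overlap between the groups (exact p = 0.10). Without the 10 positions with the most termini the groups overlapped, at 19.2%, 16.9% and 20.7% against 20.3%, 23.4% and 26.1% (exact p = 0.20). The 1% of positions with the most termini held 35.9%, 33.9% and 37.9% after 10 U against 39.95%, 42.0% and 43.1% after 1 U (exact p = 0.10). Outside the NCR that order was the opposite, and the 1% of positions with the most termini held 1.42 times as large a share after 10 U as after 1 U. Brought to an equal depth of 29622 termini, the 10 U samples held 9212, 9378 and 9156 distinct mitochondrial sites and the 1 U samples 8887, 8350 and 7795 (exact p = 0.10). At their own depths the order turned, and the 10 U samples held 0.501 times as many sites.

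The excess of H-strand termini was smaller after 10 U. In the NCR the ratio of H to L termini (H/L) was 2.69, 2.37 and 3.53 after 10 U and 27.4, 25.2 and 32.0 after 1 U. Outside the NCR it was 1.42, 1.28 and 1.69 after 10 U and 2.83, 4.02 and 5.68 after 1 U. Neither pair of groups overlapped (exact p = 0.10 for each), and the 10 U means were 0.101 and 0.350 times the 1 U means. Counted over unique sites at equal depth the difference was smaller: H/L was 1.17, 1.11 and 1.18 against 2.93, 2.87 and 3.54 in the NCR, a ratio of means of 0.369, and 1.30, 1.21 and 1.36 against 1.87, 2.28 and 2.73 outside it, a ratio of 0.561, again without overlap. The 1 U replicates spread widely outside the NCR, and the lowest of them still lay above the highest 10 U sample.

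By segment, the fall relative to nuclear termini was larger on the H strand in each of the 5 segments. These are the NCR and the segments Q1 to Q4 into which the study divided the rest of the circle. Relative to nuclear termini, H termini of the NCR were 20.2-fold rarer after 10 U and its L termini 2.03-fold rarer. Folds by segment and by gene are ratios of geometric means. H termini were 14.4-fold rarer in Q1, which runs from the MT-CYB side of the NCR back to MT-ND4L, 10.4-fold in Q2, from there back into MT-ND2, and 15.1-fold in Q3, from there into MT-RNR2. L termini of these segments were 4.54-fold, 4.24-fold and 4.26-fold rarer. Q4, which holds most of both rRNA genes, stood apart from the other segments.

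In Q4 the H termini were 3.99-fold and the L termini 3.46-fold rarer after 10 U. Its H/L ratios of 1.21, 1.12 and 1.49 after 10 U overlapped those of 1.25, 1.60 and 1.55 after 1 U. Q1 to Q3 did not overlap: in Q1, for example, H/L was 1.72, 1.42 and 2.00 after 10 U and 3.75, 5.31 and 7.83 after 1 U.

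**Figure D1:**
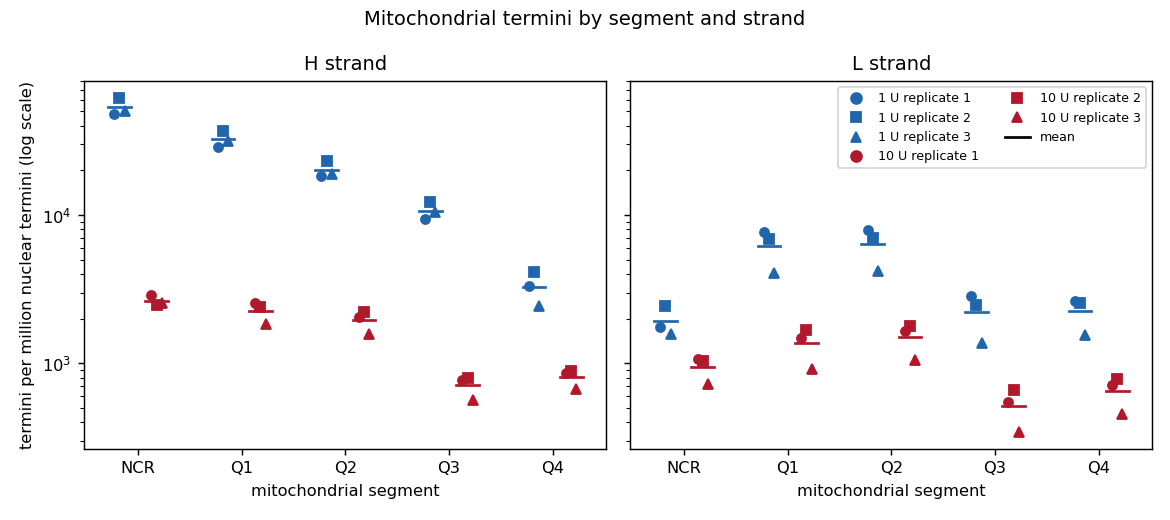
Mitochondrial termini per 1000000 nuclear termini (log axis) on the H strand (left) and the L strand (right) of the NCR and of Q1 to Q4, with 1 point for each of the 6 samples and lines for the group means. The H strand of the NCR shows the widest gap, 20.2-fold between geometric means. The L strand of the NCR and both strands of Q4 lie closest, at 2.03-fold to 3.99-fold.

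Protein-coding genes and rRNA genes differed in this respect. All 13 mitochondrial protein-coding genes, which encode subunits of the respiratory chain and of ATP synthase, had a lower H/L ratio in every 10 U sample than in any 1 U sample. Their geometric mean H/L after 10 U was 0.237 times (MT-ND6) to 0.494 times (MT-ATP6) that after 1 U. Their H termini became 8.05-fold to 19.0-fold rarer relative to nuclear termini (median 10.6-fold), and their L termini 3.30-fold to 5.05-fold (median 4.12-fold).

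MT-ND1, a subunit of complex I whose gene follows the rRNA genes, had the largest fall of H termini relative to nuclear ones among them, 19.0-fold. Its H/L was 1.34, 1.03 and 1.42 after 10 U and 3.37, 5.08 and 8.42 after 1 U. MT-ND5, also of complex I, kept an H/L of 2.46, 1.96 and 2.77 after 10 U, against 4.45, 6.74 and 9.81 after 1 U. MT-CO1, the catalytic subunit of cytochrome oxidase, came closest to equal strands, with 0.847, 0.874 and 1.06 after 10 U against 1.58, 2.22 and 2.89 after 1 U. MT-ND6, whose coding strand is the opposite of that of the other protein-coding genes, went from 3.42, 4.66 and 8.002 after 1 U to 1.21, 1.04 and 1.35 after 10 U, the same direction as the others.

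The rRNA genes did not show the lower ratio of the protein-coding genes. MT-RNR1, the small ribosomal RNA, had an H/L of 1.64, 1.68 and 1.92 after 10 U and of 1.27, 1.60 and 1.41 after 1 U, higher in every 10 U sample. MT-RNR2, the large ribosomal RNA, had 1.02, 0.924 and 1.18 after 10 U and 1.06, 1.36 and 1.36 after 1 U, and these groups overlapped. H termini of the rRNA genes were 3.66-fold and 4.14-fold rarer after 10 U, below the lowest value among the protein-coding genes.

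Of the 22 tRNA genes, 14 had a lower H/L without overlap and 8 overlapped, and their H termini were 6.54-fold to 39.8-fold rarer. MT-TL1, which follows the rRNA genes, had the largest fall of H termini relative to nuclear ones among them. At the origin of L-strand synthesis (OL), 31 positions among a group of tRNA genes, H/L was 0.750, 0.586 and 0.619 after 10 U and 1.69, 2.84 and 2.92 after 1 U.

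The change in H/L was tested over the genes, the NCR and OL with edgeR's quasi-likelihood test and Benjamini-Hochberg adjustment, each sample being its own control. It called 76.9% of the features (30 of 39), all with a lower ratio after 10 U. The NCR fell by 3.31 on the log2 scale (SE 0.30, adjusted p = 1.9e-19) and MT-ND1 by 2.06 (SE 0.32, adjusted p = 1.3e-08). MT-RNR1 (log2 change 0.29, adjusted p = 0.385) and MT-RNR2 (-0.28, adjusted p = 0.38) were not called, nor were 7 tRNA genes, MT-TF, MT-TV, MT-TW, MT-TC, MT-TY, MT-TS1 and MT-TT.

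**Figure D2:**
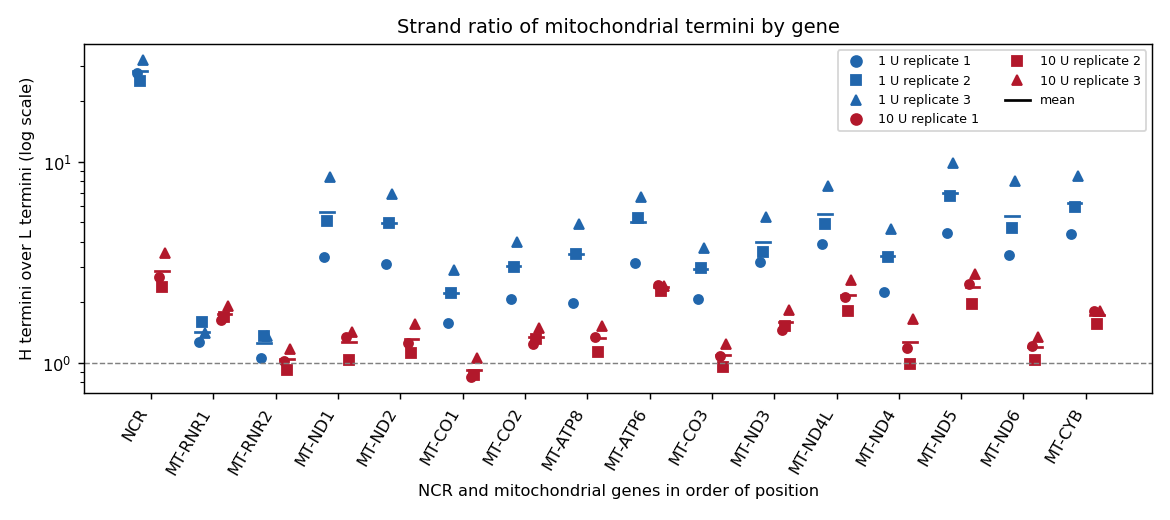
Ratio of H to L termini (log axis) in the NCR, both rRNA genes and the 13 protein-coding genes, with 1 point for each sample and lines for the group means; the dashed line marks equal strands. The 10 U samples lie below all 1 U samples in the NCR and in each protein-coding gene, whereas MT-RNR2 overlaps and MT-RNR1 lies higher after 10 U.

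The same test over windows of 100 positions called a changed H/L in 80.7% of 166 windows, 130 lower and 4 higher after 10 U. The window at 16101 to 16200 of the NCR, at the 3′ end of 7S DNA, fell by 4.04 (SE 0.21), from an H/L of 156 after 1 U to 9.50 after 10 U. The 4 windows that rose lay in the rRNA genes, at 701 to 800, 801 to 900, 2001 to 2100 and 2701 to 2800. At 2001 to 2100, within MT-RNR2, H termini numbered 345, 431 and 201 after 10 U and 295, 344 and 231 after 1 U, and L termini 67, 105 and 56 against 286, 234 and 141, a rise of 1.65 (SE 0.41, adjusted p = 0.00014).

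The distribution of termini along each strand was tested in the same windows, with counts scaled by edgeR's TMM factors. These scaled counts are not plain shares of the mitochondrial total. The test called 76.8% of 332 windows, 139 with a higher and 116 with a lower scaled count after 10 U. The split depends on the scale: with total counts in place of the TMM factors it was 184 to 72, and with nuclear termini as the scale 0 to 327. The 5 windows with the strongest gain in scaled count were L 1901 to 2000, H 2001 to 2100, L 1501 to 1600, L 10701 to 10800 and L 6701 to 6800. Of these, 3 lay in rRNA genes. L 1901 to 2000 held 461, 559 and 255 termini after 10 U and 430, 336 and 258 after 1 U. Its scaled count rose by 2.75 on the log2 scale (SE 0.27). Relative to nuclear termini that window stood at -0.078 on the log2 scale, whereas the mitochondrial total was 10.4-fold lower. The 5 windows with the strongest fall in scaled count were all on H, at 14401 to 14500, 3901 to 4000, 301 to 400, 16001 to 16100 and 14001 to 14100. H 14401 to 14500, within MT-ND6, held 50, 47 and 42 termini after 10 U and 1111, 974 and 971 after 1 U, a fall of 2.01 (SE 0.25).

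Over genes, NCR and OL, the same test with TMM factors called 74.4% of 78 features by strand, 31 of them (39.7%) up and 27 down. In scaled counts on the log2 scale, the NCR fell on H (by 1.44) and rose on L (by 1.85). MT-RNR1 rose on both strands, by 0.83 on H and 0.53 on L, as did MT-RNR2, by 1.00 on H and 1.28 on L. With total counts the split was 34 to 17, and with nuclear termini as the scale 0 to 77.

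Single positions showed how unequal the fall relative to nuclear termini was. The H-strand position with the most termini, 16107 in the NCR, held 1816, 1989 and 1707 termini after 10 U and 40639, 40140 and 30223 after 1 U, which is 617, 511 and 617 against 14802, 17770 and 12770 per 1000000 nuclear termini. Its neighbours 16108 and 16106 followed it, with 841, 961 and 882 against 18505, 17382 and 12747 termini at 16108, and 223, 254 and 163 against 6728, 6482 and 4509 at 16106. These 3 positions lie at the known 3′ end of 7S DNA.

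A pair of positions was chosen after their values were seen. H 14116, near the end of MT-ND5, held 877, 973 and 706 termini after 10 U and 1895, 3217 and 1994 after 1 U, and was the strongest H position outside the NCR over the 6 samples. Relative to 1000000 nuclear termini it held 298, 250.1 and 255 after 10 U and 690.2, 1424 and 842 after 1 U, so it was rarer after 10 U in every sample. L 1961, within MT-RNR2, held 213, 279 and 118 termini after 10 U and 44, 44 and 43 after 1 U. Relative to nuclear termini L 1961 held 72.3, 71.7 and 42.7 after 10 U and 16.03, 19.5 and 18.2 after 1 U, so it was more frequent after 10 U in every sample. The T filter of the methods is given for nuclear termini only. Reads primed inside mitochondrial DNA, or drawn from nuclear sequence like it, were not separated here.

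In the nuclear genome the bases at the cuts changed with the amount of P1. Bases are counted on the broken strand from the break, -1 being the 3′ terminal base and +1 the next. The following limits bear on this: an A at -1 cannot be told from the added tail, and the authors removed breaks followed within 20 bases by over 40% A. A break after an A can thus be recorded before that A, which then stands at +1. Such shifted breaks can be part of A at +1 at both amounts of P1, and their part was not tested. C was less frequent after 10 U at each of the 4 positions around the break, without overlap between the groups (exact p = 0.10 at each). At +2 it made up 17.7%, 17.6% and 17.0% after 10 U and 21.6%, 20.6% and 20.2% after 1 U, and at +1 17.9%, 17.5% and 16.1% against 20.4%, 19.4% and 19.6%.

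G was more frequent before the break and A and T after it. G at -1 made up 33.8%, 34.0% and 35.6% after 10 U and 31.2%, 31.3% and 32.2% after 1 U. T at +2 made up 27.4%, 27.2% and 27.5% against 24.5%, 25.2% and 25.3%, and A at +1 43.2%, 43.6% and 44.3% against 40.1%, 41.5% and 41.7%. None of these groups overlapped. G and C together, over the 20 bases around the break, made up 49.7%, 50.0% and 49.3% after 10 U and 50.1%, 49.9% and 50.0% after 1 U, which overlapped (exact p = 0.30).

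**Figure D3:**
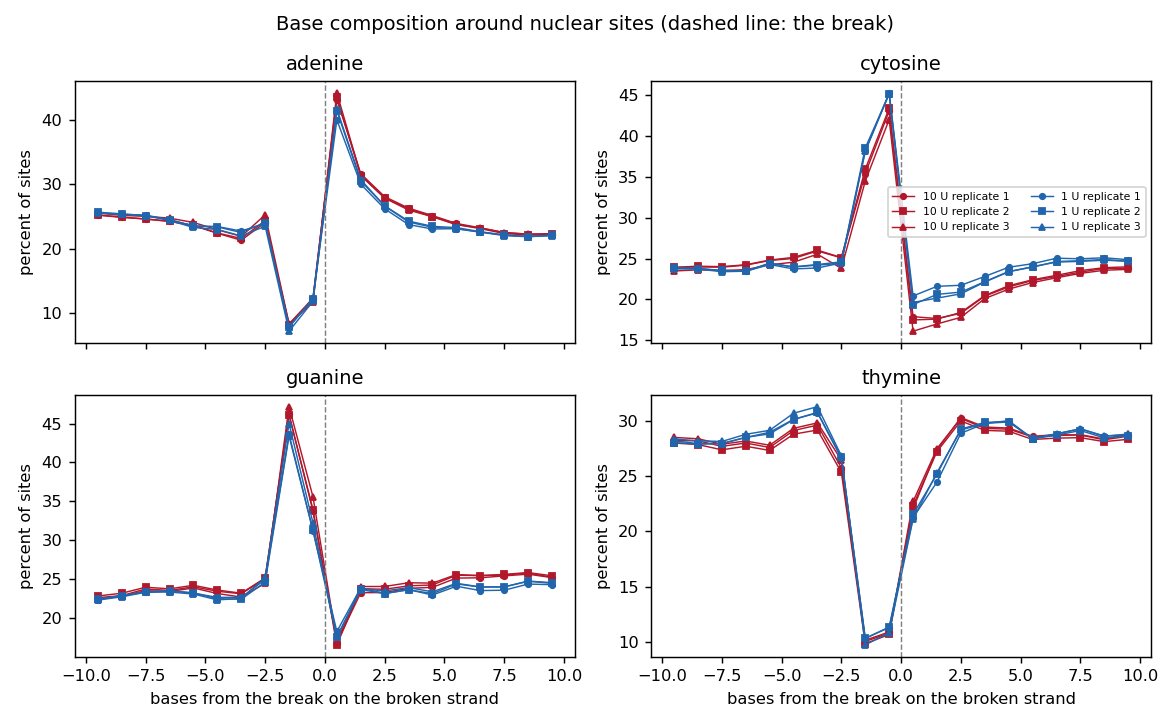
Percent of nuclear sites with each base at the 10 bases before and after the break (dashed line) on the broken strand, with 1 line per sample. C at +2 is 17.4% on average after 10 U and 20.8% after 1 U, and the other bases near the break shift by smaller amounts or in the opposite direction.

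Over all combinations of the 2 bases before and the 2 after the break, edgeR's quasi-likelihood test called 64.5% (165), 89 more and 76 less frequent after 10 U. The largest falls, written from -2 to +2, were GCGC (by 1.38 on the log2 scale, SE 0.05), CGCG (by 1.16), GCCC (by 0.98), CCGC (by 0.93) and CGCC (by 0.86). GCGC made up 0.0895%, 0.0890% and 0.0768% of sites after 10 U and 0.2499%, 0.219% and 0.219% after 1 U. The largest rises were GTAT (0.58, SE 0.05), ACAT (0.54), GGAT (0.53), ACAA (0.52) and GGTT (0.49). All of these but GGTT have A at +1, where the limit of the added tail applies. GGAT, the most common of these, made up 2.74%, 2.77% and 3.01% of sites after 10 U and 1.86%, 2.05% and 2.16% after 1 U.

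The combinations were then grouped by CpG, the dinucleotide that carries most DNA methylation in human cells, after their values were seen. Of the 16 with a CpG across the break all fell (median -0.43 on the log2 scale), of the 16 with it before the break 15 fell (-0.40), and of the 16 with it after the break 11 fell (-0.27), and none of these rose. Against this, 29.7% of all combinations fell. Of the 16 with C at +1 and +2, 11 fell as well (median -0.32), and among these 16 only CGCC holds a CpG. The fall is therefore not shown to be particular to CpG. Of the 64 with C at -2, 34 fell, but these 64 include the 16 with a CpG before the break.

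Nuclear sites lay closer together on the same strand after 10 U, whereas the groups overlapped for opposite strands. All samples were thinned to 2046116 sites, which does not even out the termini per site. The share of sites with another site on the same strand within 30 bp was 16.1%, 16.3% and 14.7% after 10 U and 10.6%, 11.6% and 10.5% after 1 U, without overlap (exact p = 0.10). The share with a site on the opposite strand within 30 bp was 3.80%, 4.02% and 3.79% against 3.83%, 3.91% and 3.89%, which overlapped (exact p = 1.0). Among sites with at least 2 termini the order on the same strand turned, and the 10 U share was 0.823 times that after 1 U. The opposite-strand share of these sites was 0.906%, 0.758% and 0.991% after 10 U and 1.37%, 1.502% and 1.34% after 1 U, 0.630 times and without overlap.

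The pairs of neighbouring sites showed at which distances this arose. Pair numbers were scaled to those of sites 901 to 1000 bp apart in the same sample. Adjacent bases on the same strand were 49.1, 48.2 and 39.6 times as frequent as the far level after 10 U and 23.4, 26.6 and 24.5 times after 1 U. At 2 to 10 bp the factor was 7.46, 7.08 and 7.15 against 5.20, 5.86 and 5.10, and at 11 to 30 bp 3.20, 2.98 and 3.30 against 2.60, 2.89 and 2.64, again without overlap.

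Beyond that the groups met: at 51 to 100 bp the factor was 2.11, 1.96 and 2.15 after 10 U and 1.95, 2.15 and 2.00 after 1 U. At 101 to 200 bp it was lower in every 10 U sample, 1.59, 1.47 and 1.59 against 1.61, 1.74 and 1.65. All 6 samples had local maxima at 9 to 10 bp, about the length of a helical turn, and at 74 to 75 bp. At 74 to 75 bp the factor was 2.62, 2.36 and 2.51 after 10 U and 2.20, 2.39 and 2.22 after 1 U, which overlapped. For opposite strands, the factor within 30 bp was 1.45, 1.38 and 1.43 after 10 U and 1.51, 1.56 and 1.54 after 1 U, lower in every 10 U sample.

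**Figure D4:**
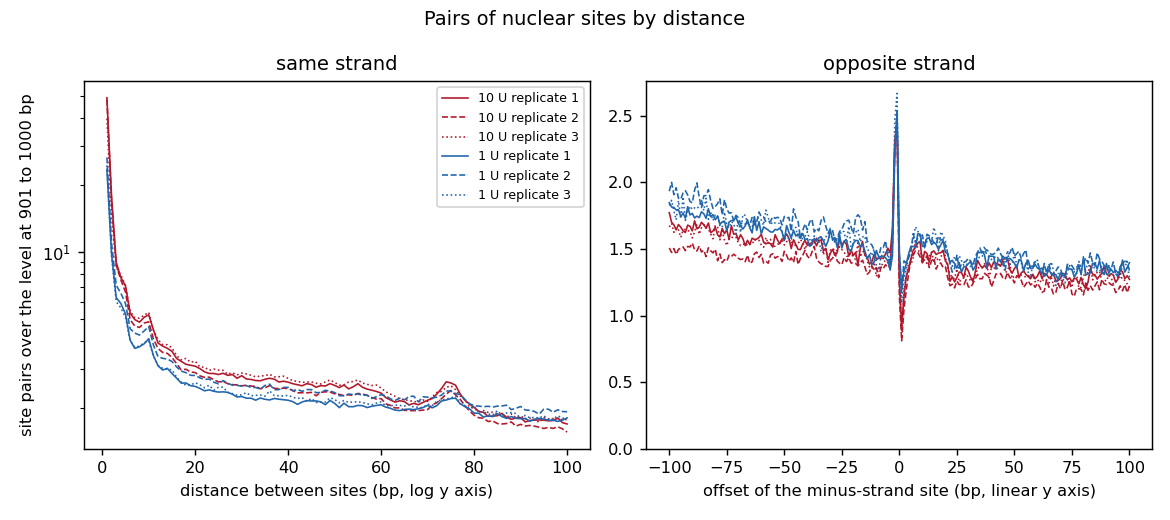
Pairs of nuclear sites over the level at 901 to 1000 bp, by distance in bp, on the same strand (left, log axis) and on opposite strands (right, linear axis), with 1 line per sample. On the same strand the 10 U lines lie above the 1 U lines at short distances, by 1.84-fold on average for adjacent bases, and meet them at 51 to 100 bp.

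The 1 kb windows in which sites gained after 10 U were mostly short stretches of 1 strand in front of a run of adenines. Of 45452 windows with at least 20 sites over the 6 samples, edgeR's quasi-likelihood test called 1.18% (537). More sites after 10 U were held by 460 of them (1.01% of those tested) and fewer by 77 (0.169%). The limit of 20 was applied to the unscaled sites of both groups together, so a window could reach it by its 10 U sites alone. The numbers in each direction can depend on this filter. In 388 of the 460 windows (84.3%), over 50% of sites lay within 150 bases before a run of at least 10 A on the broken strand, against 5.70% of all windows tested. In 414 of them, at least 80% of sites were on 1 strand, against 11.5% of all windows tested. The middle 50% of their 10 U sites spanned a median of 47.4 bases. Shares on 1 strand and before runs were counted over the sites of all 6 samples. In windows that gained they therefore describe mostly 10 U sites.

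The call count depends on the processing. Leaving out each sample in turn gave 217 (without 1 U replicate 1) to 360 windows (without 10 U replicate 1), and DESeq2 called 5. Without the sites in front of A runs, 53 of 39964 windows were called, 35 with more and 18 with fewer sites.

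Of the 5 windows with the smallest p among those that gained, the one in an intron of PHKB, a subunit of phosphorylase kinase, is shown by the stretch that held its sites, because it displays the order of sites and run. The sequence is that of the broken strand in hg19, 5′ to 3′, with the run of adenines in capitals.

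chr16:47513365-47513476, minus strand: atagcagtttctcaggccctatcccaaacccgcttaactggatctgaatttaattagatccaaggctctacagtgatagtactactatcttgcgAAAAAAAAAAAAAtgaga

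The run is 13 bases long, and the median 10 U site lay 39 bases before it. The window that holds this stretch had 13, 24 and 22 sites after 10 U and 1, 1 and 0 after 1 U, a log2 change of 4.16 (SE 0.63, adjusted p = 9e-05). On the minus strand lay 98.3% of its 10 U sites, and 95.1% of all its sites preceded the run. The other 4 of these windows had 10 to 44 sites in each 10 U sample and 0 to 5 in each 1 U sample, with log2 changes of 2.73 to 4.74. In them 74.5% to 96.5% of sites preceded a run, and none of the groups overlapped.

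Across the genome, 4.98%, 5.10% and 5.23% of sites lay within 150 bases before a run of at least 10 A after 10 U, and 3.42%, 3.73% and 3.55% after 1 U, without overlap (exact p = 0.10). Of reference positions taken at regular steps, 2.58% did. Runs of T after the break followed 2.39% to 2.41% of sites after 10 U and 2.48% to 2.52% after 1 U, and runs of A lay before the break for 1.83% to 1.87% against 2.09% to 2.15%. Of these 3 kinds of run, only runs of A after the break had a higher share after 10 U.

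The distance from the break to the run had maxima near 21 to 25 and 76 to 80 bases, and in every 1 U sample also at 41 to 45. In the 5-base bin at 21 to 25 bases lay 0.344%, 0.364% and 0.372% of sites after 10 U and 0.188%, 0.221% and 0.188% after 1 U. At 41 to 45 bases the order was the opposite, with 0.188%, 0.195% and 0.192% after 10 U and 0.215%, 0.224% and 0.202% after 1 U. In the 5-base bin at 76 to 80 bases lay 0.457%, 0.466% and 0.484% of sites after 10 U and 0.233%, 0.251% and 0.267% after 1 U. The library protocol primes on the added polyA tail, and the filter of the authors looked at the first 20 bases after the break. In the first 10 of these no such run is found in the files. The bin at 21 to 25 bases is the first beyond the span of the filter. Its maximum over nearer bins cannot be told apart from the edge of the filter. Whether these sites are cuts of P1 was not tested. Without them, the same-strand share within 30 bp was 15.5%, 15.7% and 13.9% after 10 U and 10.5%, 11.5% and 10.3% after 1 U, so it stayed higher after 10 U without overlap.

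**Figure D5:**
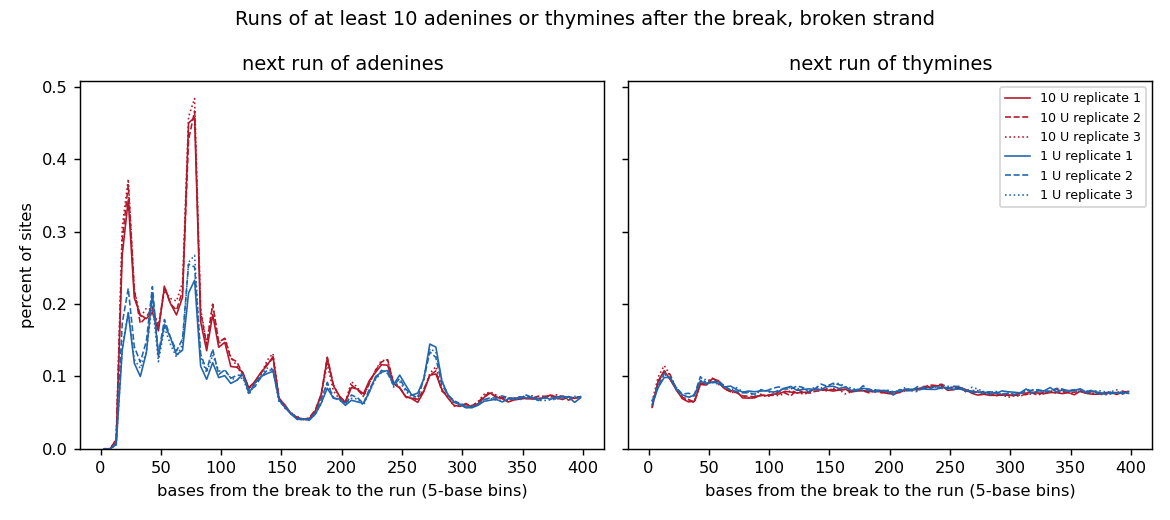
Percent of nuclear sites by the distance from the break to the next run of at least 10 adenines (left) or thymines (right) on the broken strand, in 5-base bins, with 1 line per sample. Before adenine runs the 10 U lines stand above the 1 U lines at 21 to 25 and 76 to 80 bases from the break and below them at 41 to 45 bases, and the thymine lines of both groups lie together.

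Of the 77 windows with fewer sites after 10 U, 12 were like the mitochondrial genome in sequence, against 13 of all 45452 windows tested. The strongest lay on chromosome 1 (569001 to 570000), matched the mitochondrial genome at 98.3% of bases over 1000 bases, and had 5, 12 and 9 sites after 10 U and 47, 54 and 37 after 1 U, a fall of 2.92 (SE 0.29, adjusted p = 7.8e-10). A pair in an intron of PCBD2 on chromosome 5, starting at 134260001 and 134262001 and 92.7% and 95.4% identical to mitochondrial sequence, had 7, 11 and 6 against 38, 21 and 26 sites, and 3, 3 and 2 against 23, 9 and 15. These windows moved in the same direction as mitochondrial termini, and the part of misplaced mitochondrial reads in them was not tested. Of the other named windows, chromosome 17 at 22020001 to 22021000 had 7, 15 and 7 against 29, 26 and 25 sites, and chromosome 2 at 33141001 to 33142000 had 15, 23 and 6 against 36, 190 and 10, a difference carried by 1 U replicate 2.

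Among gene features, promoters had a lower density of sites after 10 U. The density in the 1 kb centred on gene starts was 1.53, 1.64 and 1.501 times the genome-wide one after 10 U and 1.79, 1.88 and 1.83 times after 1 U, without overlap. Exons lay the other way, with 1.56, 1.68 and 1.58 after 10 U and 1.49, 1.56 and 1.56 after 1 U, by a margin of 1.5639 for the lowest 10 U sample against 1.5635 for the highest 1 U sample. With the density in introns as the scale the exon groups overlapped (exact p = 0.20) and the promoter groups did not. On the genome-wide scale, exact p = 0.10 for both and 0.25 after Benjamini-Hochberg adjustment over the 5 features. Introns, the 1 kb after gene ends and intergenic sequence overlapped, with 10 U means of 1.08, 1.43 and 0.885 and 1 U means of 1.07, 1.40 and 0.894.

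Base composition was associated with density as well. In the 10% of 1 kb windows with the least G and C, the density was 0.260, 0.243 and 0.274 times the genome-wide one after 10 U and 0.297, 0.286 and 0.288 after 1 U. In the 10% with the most, it was 2.22, 2.40 and 2.19 against 2.11, 2.20 and 2.17, which overlapped. In gene bodies, 49.0%, 49.1% and 49.0% of sites lay on the template strand after 10 U and 48.8%, 48.9% and 48.5% after 1 U, higher in every 10 U sample by 0.287 percentage points on average (exact p = 0.10).

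Few single genes changed. Of 18987 protein-coding genes, edgeR's quasi-likelihood test called 0.0316% (6), 3 in each direction (0.0158%), whereas 1547 had an unadjusted p under 0.05, and DESeq2 called 1. MUC5B, a secreted mucin, had 122, 164 and 96 sites after 10 U and 69, 64 and 57 after 1 U, a rise of 0.65 (SE 0.14, adjusted p = 0.0095). TTC34, at 381, 515 and 405 against 299, 220 and 284 sites, rose by 0.35 (SE 0.08, adjusted p = 0.041).

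In the 3 genes that fell the groups did not overlap after scaling for depth. EPHA6, an ephrin receptor, had 265, 329 and 231 sites after 10 U and 308, 270 and 260 after 1 U and fell by 0.37 (SE 0.08). PCBD2, which holds the mitochondrial-like windows above, had 108, 151 and 132 against 230, 164 and 177 and fell by 0.89 (SE 0.11). MAGEB10 had 9, 9 and 10 against 13, 39 and 15 and fell by 1.60 (SE 0.33), with 33 sites of 1 U replicate 2 in a single 1 kb window.

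HBB, the beta globin chain of adult hemoglobin, was called at 3.74 (SE 0.27), and this rested on 1 sample. It had 7, 280 and 5 sites after 10 U and 3, 6 and 7 after 1 U, and the groups overlapped. In 10 U replicate 2, 278 of its 280 sites lay in exons and 278 on the plus strand, which is the template strand of this gene. Without that sample its log2 change was -0.028.

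At promoters 0.0246% of 8125 (2) were called, 1 in each direction (0.0123%), with 450 at an unadjusted p under 0.05, and none was called by DESeq2 or when any 1 sample was left out. The promoter of IL16, a cytokine, had 10, 12 and 12 sites after 10 U and 2, 0 and 1 after 1 U. That of METTL13, a methyltransferase, had none in any 10 U sample and 10, 5 and 5 after 1 U, at least 6.995-fold lower when 3 sites over the 10 U group are taken as the limit that a count of 0 allows.

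Gene lists held no called gene besides HBB. Among 16 very long genes at common fragile sites, which replicate late and break under replication stress, 0 had a higher estimate after 10 U, against 49.7% of all genes tested, and the median log2 change was -0.12 against -0.00 for all genes. Of these 16, 10 had an unadjusted p under 0.05 (62.5%, against 8.15% of all genes). LRP1B was the lowest at -0.24 (adjusted p = 0.117). These genes are rich in A and T, and windows of low G and C content had fewer sites after 10 U as a whole; the part of base composition was not tested.

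The median was -0.15 over 84 cytosolic ribosomal protein genes, of which 26 had a higher estimate, and -0.11 over 37 replication-dependent histone genes. It was 0.02 over 9 globin genes, 0.03 over 20 erythroid genes, 0.00 over 37 genes of DNA replication, -0.12 over 246 olfactory receptor genes and -0.07 over 19 genes of mitochondrial DNA maintenance. None of these members other than HBB passed the test.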

How the data were processed

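The authors kept read pairs with the expected G and T tails, aligned them with BWA-MEM (0.7.12) to hg19 and, separately, to its mitochondrial genome, and deposited the count of termini per position and strand. For the nuclear genome they removed termini with over 40% T in the 20 bases upstream of read 2. The deposited RPM values of the mitochondrial files were not used, nor were the region lists made with SICER (1.1). Whether PCR duplicates were removed is not given in the sources used here, so counts are not counts of independent molecules. Samples were grouped by their titles. The paper calls the replicates biological, and the labels name no separate cultures, so p-values measure the spread between these samples.

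Nuclear results used unique sites on chromosomes 1 to 22 and X. Mitochondrial positions are those of the files, whose genome has 16571 bases. The gene positions are those of GENCODE 44 on a genome of 16569 bases so they may be displaced by a few bases, and no mitochondrial sequence was read. Counts were tested with edgeR 4.0.16 in R 4.3.3 (quasi-likelihood test, TMM factors, at least 10 counts a feature and 20 a 1 kb window, adjusted p under 0.05), with DESeq2 1.42.0 as an alternative. Single values were tested with the exact two-sided permutation test over all 20 splits of 6 samples, without adjustment unless stated. Mitochondrial sites were brought to equal depth by the rarefaction formula and nuclear sites by 3 random draws. Windows like the mitochondrial genome matched it with blastn 2.17.0 over at least 100 bases at 90% identity. The scripts were tested on simulated data.

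The members, gene lists and tests were chosen with earlier results of these data known. Named features follow a rule: the NCR, Q1 to Q4, rRNA and protein-coding genes, the 3 H positions with the most termini, the 5 windows of each direction with the smallest p, the 5 contexts of each direction with the largest change, called genes and promoters without overlap (up to 10 a direction), and the lists' extremes. Some sequences and positions that this rule names are not reported here. The analysis of A runs, the CpG groups and the other features named as such were added after seeing the data. The alternatives were other scales, library sizes, filters, window lengths, distances and depths, all termini or sites with at least 2, the replicate number as a block, and omission of each sample.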

Additional observations from a re-analysis of the deposited data

How the results depend on the processing

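Of the values recomputed for the comparisons, 183 kept direction and call, 13 turned direction and 25 counts moved by over 1.5 times. For the named features the numbers were 458 kept, 6 turned and 50 no longer called. Ratios below are of the 10 U to the 1 U mean. The share of the top 1% of mitochondrial positions turned to 1.42 outside the NCR, and unique mitochondrial sites to 0.501 at each sample's own depth. Among sites with at least 2 termini same-strand clustering turned to 0.823 and opposite-strand clustering was 0.630. Differences near 0 changed sign: opposite-strand clustering was 1.00 within 100 bp, 1.21 over all sites of each sample, 1.03 without sites before A runs (chosen after seeing the data) and 0.979 to 1.01 leaving out 1 sample, G and C content was 1.00 at sites with at least 2 termini, and the density after gene ends was 0.999 to 1.03 leaving out 1 sample. With nuclear termini as the library size, the 5 mitochondrial windows with the strongest gain under TMM factors stood at -0.078, -0.25, -0.71, -0.77 and -0.92 on the log2 scale. HBB stood between -0.028 (without 10 U replicate 2) and 4.24 (without 10 U replicate 1).

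Mitochondrial windows called were 435 of 664 with windows of 50 positions and 129 with unique sites at equal depth, and strand-bias windows 252 of 332 with windows of 50 positions. Gene bodies called were 1 with DESeq2, 50 with all termini and 1 to 9 leaving out 1 sample, the fewest without 10 U replicate 2 and 3 without 1 U replicate 2. Promoters called were 0 with DESeq2, 0 in windows of 2 kb and 0 to 0 leaving out 1 sample. The 1 kb windows called were 5 with DESeq2, 820 with total counts (771 higher and 49 lower), 66 with every window that held a site, 53 without sites before A runs, 518 without windows like the mitochondrial genome, 685 with all termini (462 higher and 223 lower) and 217 to 360 leaving out 1 sample. Where samples that share a replicate number were treated as a block, 223 windows of 1 kb were called in place of 537, and no other count moved by over 1.5 times. The labels name no shared origin of same-numbered samples, whereas the paper paired each P1-treated replicate with an untreated one. Correlations of deviations between same-numbered samples were -0.06, -0.06 and 0.32 over mitochondrial windows. Over base contexts they were 0.36, -0.32 and -0.09, and over gene bodies 0.04, 0.05 and -0.01. With 3 pairs the smallest sign-flip p is 0.25. Site counts per gene and window, mostly below 100, limit what single genes and windows can show.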

Other observations

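Some 1 kb windows drew most of their sites from 1 sample. Counted as windows in which 1 sample held over 60% of sites after scaling for depth, there were 2, 13 and 0 in the 10 U replicates and 0, 7 and 8 in the 1 U replicates, of 45452 tested. In 10 U replicate 2 they included 3 windows of HBB, with 121, 92 and 67 sites against at most 5 in any other sample, and windows of the alpha globin genes HBA1 (16 sites) and HBA2 (24 sites), of GSTA4 (29 sites) and of UCP2 (14 sites). In 1 U replicate 3 they included windows of the ribosomal protein genes RPS3 (20 sites) and RPS9 (21 sites), and windows that overlap PFN1 (18 sites), TMSB10 (23 sites) and FAU (12 sites). In 1 U replicate 2 they included windows of MAGEB10 (33 sites) and CRB1 (27 sites). No window of this kind was found in 10 U replicate 3 or 1 U replicate 1.

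Exact nuclear positions that recurred on the same strand in all 3 replicates of an amount numbered 7346 after 10 U, of which 2256 were in no 1 U sample, and 5939 after 1 U, of which 734 were in no 10 U sample. The samples differed in their number of sites (2046116 to 3274245), and these numbers were not brought to equal depth.

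Some called windows with more sites after 10 U did not have most of their sites before A runs. Among these, the sites of the windows with the smallest p still lay mostly on 1 strand. They were called with all sites kept, and their result without the sites before A runs is not given here. A window in an intron of PNPLA8, a phospholipase gene, had 15, 14 and 16 sites after 10 U and 1, 1 and 1 after 1 U, with 95.6% of the 10 U sites on the minus strand. A window in an intron of NEDD4L, a ubiquitin ligase gene, had 41, 59 and 48 against 12, 17 and 8, with 99.3% of the 10 U sites on the minus strand. A window in an intron of CTDSPL had 21, 30 and 16 against 5, 1 and 3, with 98.5% on the plus strand.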
